A study of Mus musculus with 24 samples.

Results

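The peroxisome proliferator-activated receptors PPARα, PPARγ and PPARδ (Ppara, Pparg, Ppard), their obligate partners RXRα, RXRβ and RXRγ (Rxra, Rxrb, Rxrg), and the coactivators PGC-1α and PGC-1β (Ppargc1a, Ppargc1b) were followed in mouse liver. They were taken by gene symbol and make up 8 of the 34945 named genes of the expression table. All 8 had a mean of at least 1 TPM over the 24 libraries and were among the 10551 genes tested. TPM state how much of a library's transcripts belong to a gene, after correction for transcript length.

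PPARs are nuclear receptors that are activated by fatty acids and their derivatives and bind DNA as a dimer with an RXR. In liver, PPARα drives the burning of fat in fasting, PPARγ is best known from fat tissue and from fat storage in fatty liver, and RXRs also pair with other receptors such as LXR, FXR and PXR. PGC-1α and PGC-1β do not bind DNA themselves. They are recruited by PPARs and by other factors, and PGC-1α also by FoxO1. Both raise the output of genes for mitochondrial oxidation, and PGC-1α also that of genes for glucose production.

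Liver RNA was sequenced from livers labelled FoxO1-/- and PPARα-/- together (LFPKO), PPARα-/- (LPKO), FoxO1-/- (LFKO), and FoxO1 lox/lox with PPARα lox/lox (WT). The deletions were made by crossing floxed mice with Albumin-cre mice, whose Cre is active in hepatocytes, so other cells of the liver keep both genes; no Cre is stated for the WT livers. Each genotype was sampled after 3 weeks of a high-fat diet (HFD) or a regular diet (RD), and all livers came from mice fasted for 4 h, with 3 libraries in each of the 8 groups. Nothing says that the libraries of a group came from separate mice, so a p-value here reflects only the spread among its libraries, which may be technical.

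TPM keep no read counts, so the depth behind a value is unknown. Foxo1 ranged from 0.250 to 0.484 TPM in the 12 libraries labelled FoxO1-/- and from 4.06 to 9.94 TPM in the other 12. Ppara TPM do not check the PPARα labels, because they sum all transcripts of the gene, also any made from an allele with an exon removed. Hepatocyte markers such as Alb, the gene for albumin, were high in every library, at 19027 TPM or more. HFD libraries carried more of the major urinary protein transcripts (Mup genes), at 6.505% to 30.7% of TPM, against 5.06% to 14.4% in RD libraries. HFD WT replicate 2 held the highest Mup share, and HFD LFKO replicate 1 stood apart from its group on the first principal component. TPM are shares of a whole. The median of all tested genes was 0.21 lower on the log2 scale on HFD than on RD, averaged over genotypes. The cause of that shift was not tested, and median-of-ratios scaling (called scaling below) sets it to 0.00. Changes below are log2 fold changes ± SE of TPM + 1, a scale that understates changes of weakly expressed genes. A gene was called changed at a limma adjusted p under 0.05 over all tested genes.

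In the PPAR and RXR families 1 member held most of the summed TPM in every library. Ppara took 72.6% to 94.4% of the summed TPM of the 3 PPARs, Pparg 2.27% to 25.6% and Ppard 1.85% to 4.18%. Rxra took 81.5% to 91.2% of the RXR total. The PGC-1 total had no such member, with 34.7% to 73.6% of it in Ppargc1a. By mean TPM, Rxra (99.6 TPM) and Ppara (61.0 TPM) stood above 92.0% and 88.1% of the tested genes, whereas Ppargc1a (1.97 TPM), Ppard (1.90 TPM) and Ppargc1b (1.82 TPM) stood above 12.3%, 11.5% and 10.7% of them. Pparg varied most between libraries, with a highest value 20.8 times its lowest, and Rxra least, at 1.40 times. Rxrg varied 5.45-fold, Ppargc1b 4.10-fold, Ppargc1a 3.11-fold, Ppara 2.35-fold, Rxrb 2.33-fold and Ppard 1.66-fold.

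**Figure D1:**
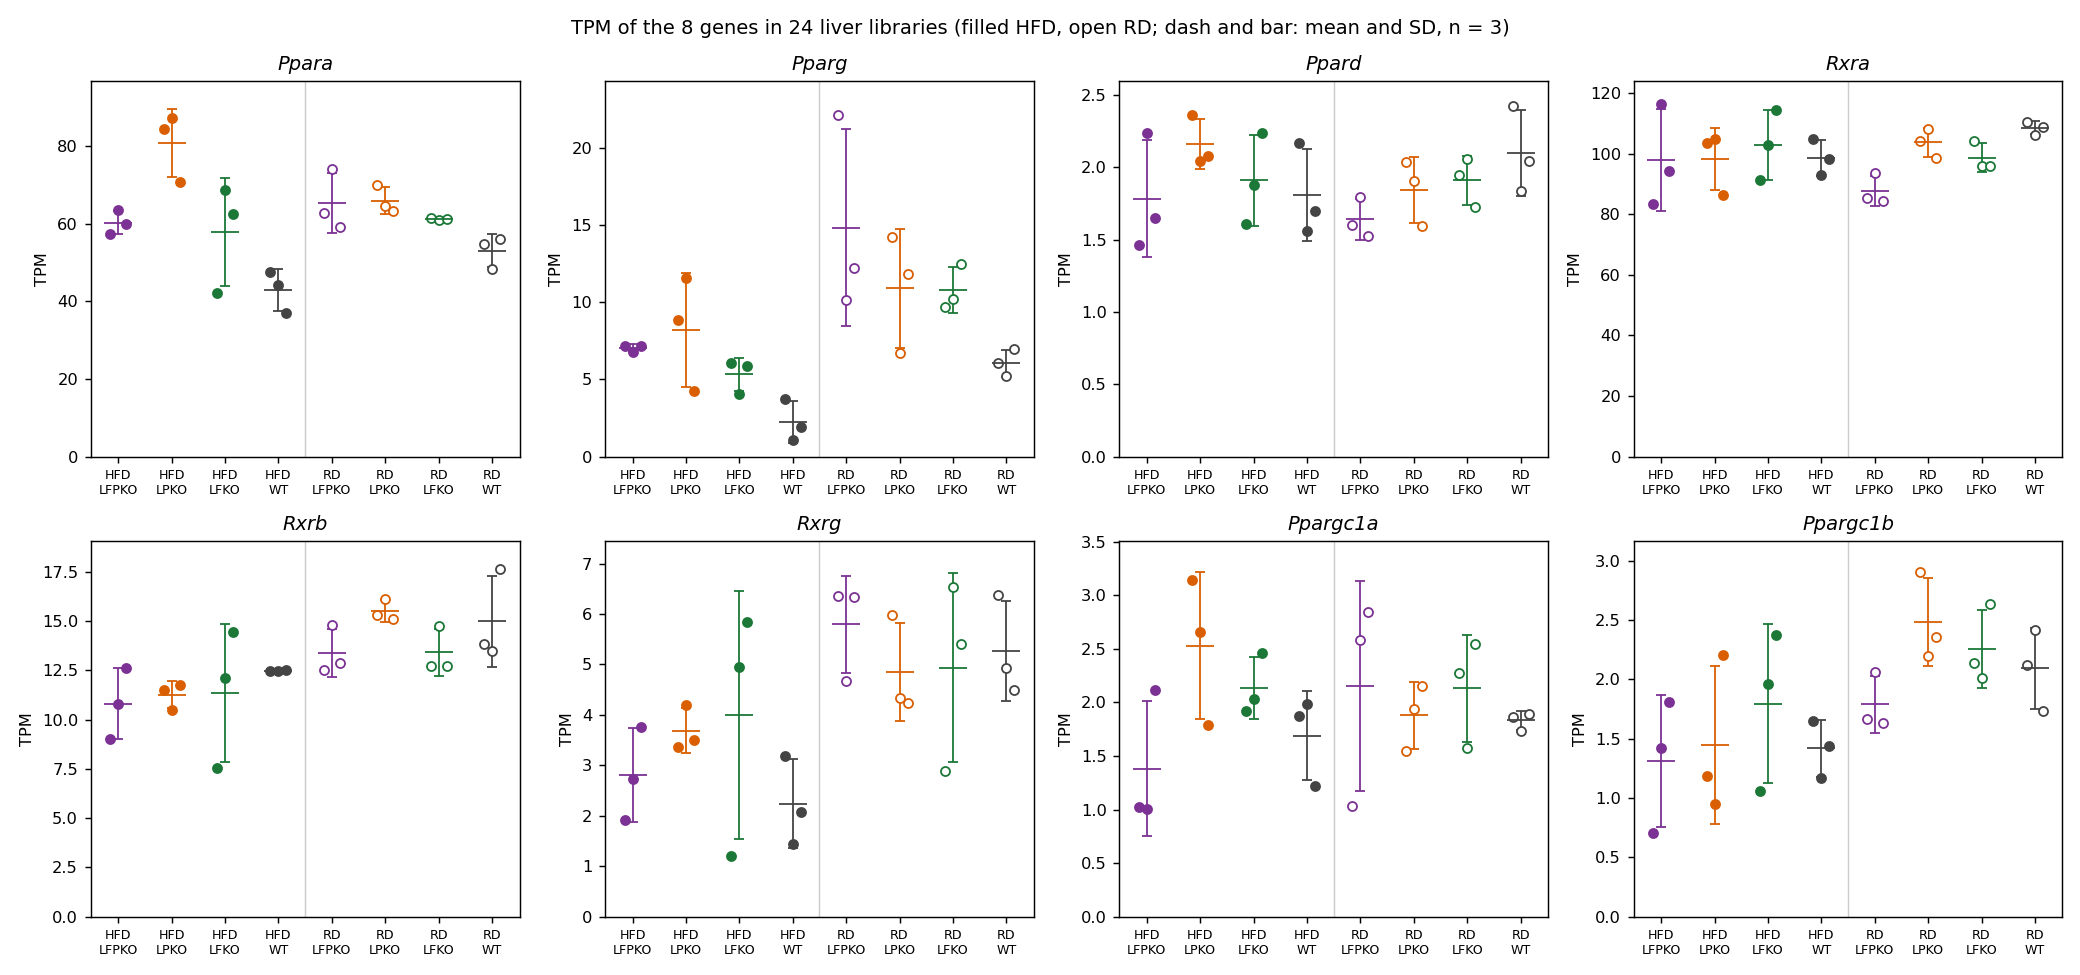
TPM of the 8 genes in each library by group, knockouts left of WT and HFD left of RD; points are libraries, the dash and bar are the mean and SD of 3 libraries, and each vertical axis starts at 0. Pparg spans 1.06 to 22.1 TPM and is lowest in HFD WT livers, Ppara is highest in HFD LPKO livers, and Rxra stays between 83.3 and 116 TPM.

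Pparg (ENSMUSG00000000440.12, chr6:115360951-115490399, plus strand, GRCm38, GENCODE M21), the receptor of fat storage, was called higher in the knockout livers on HFD. It was called lower on HFD than on RD in WT and LFPKO livers. On HFD it stood at 7.20, 6.76 and 7.15 TPM in LFPKO livers, at 8.82, 11.6 and 4.26 TPM in LPKO livers, at 6.04, 4.08 and 5.86 TPM in LFKO livers, and at 3.71, 1.06 and 1.92 TPM in WT livers. All 9 HFD knockout libraries lay above all 3 HFD WT libraries. On RD it stood at 22.1, 10.2 and 12.2 TPM in LFPKO livers, at 14.2, 6.69 and 11.8 TPM in LPKO livers, at 9.68, 10.2 and 12.5 TPM in LFKO livers, and at 6.05, 5.19 and 6.95 TPM in WT livers. On RD the LPKO libraries overlapped WT, through LPKO replicate 2, and the LFKO and LFPKO libraries did not. In the order of group means, RD LFPKO (14.8 ± 6.39 TPM) was highest, followed by RD LPKO (10.9 ± 3.86), RD LFKO (10.8 ± 1.51), HFD LPKO (8.21 ± 3.69), HFD LFPKO (7.04 ± 0.239), RD WT (6.06 ± 0.876), HFD LFKO (5.33 ± 1.08) and HFD WT (2.23 ± 1.35; SD, n = 3 each). Only HFD LFKO and HFD WT, among neighbours in that order, did not overlap.

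RefSeq (GRCm38.p6) lists 3 start sites of Pparg, and the 250 bases before each were read because Pparg moved most of the 8 genes. The window below ends at the start of the transcript that begins farthest into the gene; it is shown as the promoter stretch of Pparg that holds none of the motifs searched, so it has no capitals. It is given 5′ to 3′ on the plus strand (chr6:115421816-115422065) and has 40.8% G and C, against a median of 52.4% over all windows.

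Pparg, start 3: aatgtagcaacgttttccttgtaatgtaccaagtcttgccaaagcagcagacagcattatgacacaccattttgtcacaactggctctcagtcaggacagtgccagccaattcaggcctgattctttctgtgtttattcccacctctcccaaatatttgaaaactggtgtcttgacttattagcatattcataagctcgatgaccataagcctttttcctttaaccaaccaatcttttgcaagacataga

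The motifs, searched on both strands, were the FoxO element GTAAACA, the nuclear receptor core motif AGGTCA, and DR1, the PPAR-RXR element made of AGGTCA, any 1 base, and AGGTCA again, which contains the core motif at each end. GTAAACA stands in 3.17% of 32851 such windows, AGGTCA in 14.02% and the DR1 letters in 0.0335%. Among the 12 windows of the 7 genes matched, none held the DR1 letters. The other Pparg windows each hold 1 core motif, at 28 bases before the first start (chr6:115361116-115361121) and 9 bases before the second (chr6:115362340-115362345); Rxrb holds the FoxO element 59 bases before its second start (chr17:34032291-34032297). Capitals mark the motif in these stretches of the plus strand, which show how the letters sit in these genes:
Pparg, start 1: ccgccgcctcAGGTCAgagtcgcccc
Pparg, start 2: ggacgcgaggAGGTCAaga
Rxrb, start 2: ccccttgtttGTAAACAcgcgccctcg
Core motifs also stood 1 time in Rxrg and 2 times in Rxra windows. In a check of the bases after each start, those of the Rxrg windows were found in no GENCODE M21 transcript of that gene. The search was chosen after the expression values were seen, and a match describes letters, not binding.

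Against WT on HFD, Pparg was called in all 3 knockouts. Its log2 fold change was 1.40 ± 0.32 in HFD LFPKO livers (limma adjusted p = 0.0149), where 3.09% of all tested genes were called. It was 1.504 ± 0.32 in HFD LPKO livers (limma adjusted p = 0.00801), where 4.73% of genes were called, and 1.04 ± 0.32 in HFD LFKO livers (limma adjusted p = 0.0380), where 13.5% were. These calls rested on single libraries: without HFD WT replicate 2 the values were 1.11, 1.22 and 0.75 (limma adjusted p = 0.114, 0.0730 and 0.235), without HFD WT replicate 3 the LFPKO and LFKO calls were lost (limma adjusted p = 0.0554 and 0.0750), without HFD LPKO replicate 2 the LPKO call was lost (limma adjusted p = 0.0620), and leaving out HFD LFKO replicate 1, 2 or 3 ended the LFKO call (limma adjusted p = 0.0515, 0.0752 and 0.146). With only the compared groups fitted, limma adjusted p was 0.0549, 0.108 and 0.124, and after scaling the LFKO value was 0.89 (limma adjusted p = 0.115).

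Against WT on RD, Pparg was called in LFPKO livers (1.10 ± 0.32, limma adjusted p = 0.0389; 7.45% of genes called). The values were 0.71 ± 0.32 in RD LPKO livers (limma adjusted p = 0.232; 5.85% called) and 0.74 ± 0.32 in RD LFKO livers (limma adjusted p = 0.269; 1.67% called). No member was called in RD LPKO or RD LFKO livers with limma, and at an unadjusted p under 0.05 there were 2 (Ppara, Pparg) and 1 (Pparg). The RD LFPKO call was lost when any of RD LFPKO replicate 1 or 3 or RD WT replicate 1, 2 or 3 was left out, with values of 0.79, 1.19, 1.10, 1.01 and 1.19 (limma adjusted p = 0.206, 0.0758, 0.0810, 0.128 and 0.0682). It was also lost with a pseudocount of 0.1 (limma adjusted p = 0.0627), with no filter (0.0916) and with the compared groups alone (0.0544).

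Averaged over diets and over FoxO1, the 12 libraries labelled PPARα-/- had 4.26 to 22.1 TPM of Pparg with a median of 9.50 TPM, against 1.06 to 12.5 TPM with a median of 5.95 TPM in the 12 others. The ranges overlapped. The averaged effect was 0.73 ± 0.16 (limma adjusted p = 0.00246), it kept its call in all 30 alternatives, and it was 0.74 after scaling. Of all tested genes, 17% were called in this comparison. The average joined unequal values. With FoxO1 intact, LPKO livers differed from WT by 0.71 on RD and 1.504 on HFD, and only the second was called. With FoxO1 deleted, LFPKO livers differed from LFKO livers by 0.36 ± 0.32 on each diet (limma adjusted p = 0.637 on RD and 0.519 on HFD). The FoxO1 by PPARα interaction of Pparg was -0.74 ± 0.32 and was not called (limma adjusted p = 0.147). FoxO1 deletion averaged the same way gave 4.08 to 22.1 TPM with a median of 8.44 TPM in FoxO1-/- libraries, against 1.06 to 14.2 TPM with a median of 6.37 TPM in the others. That difference was 0.52 ± 0.16 and missed the threshold (limma adjusted p = 0.0760). Here 3.94% of genes were called and no member was, with 1 member, Pparg, at an unadjusted p under 0.05. LFKO livers differed from WT by 0.74 on RD and 1.04 on HFD, and only the second was called. LFPKO livers differed from LPKO livers by 0.39 ± 0.32 on RD and -0.11 ± 0.32 on HFD, neither called.

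On HFD against RD, Pparg fell by 1.20 ± 0.32 in WT livers (limma adjusted p = 0.0112), where 30.8% of genes were called and the diets did not overlap. It fell by 0.91 ± 0.32 in LFPKO livers (limma adjusted p = 0.0417; 26.3% called), also without overlap. The difference in LFKO livers, -0.91 ± 0.32, was as large and again without overlap, but it was not called (limma adjusted p = 0.0781, with 9.45% called). In LPKO livers the difference was -0.40 ± 0.32 (limma adjusted p = 0.365, with 18.1% called), and the diets overlapped. Scaling ended the WT call (-0.97, limma adjusted p = 0.0616), as did leaving out HFD WT replicate 2 (-0.92, limma adjusted p = 0.0859) and leaving out Mup and mitochondrial-genome transcripts (-1.04, limma adjusted p = 0.0543). The LFPKO call was lost without any of HFD LFPKO replicates 1, 2 and 3 (limma adjusted p = 0.104, 0.0851 and 0.0677) or RD LFPKO replicates 1 and 3 (limma adjusted p = 0.220 and 0.0564), and after scaling (-0.66, limma adjusted p = 0.167).

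Over all genotypes the 12 HFD libraries had 1.06 to 11.6 TPM of Pparg with a median of 5.95 TPM, against 5.19 to 22.1 TPM with a median of 10.2 TPM in the 12 RD libraries. Pparg fell by 0.86 ± 0.16 (limma adjusted p = 1.71e-04) in this averaged comparison, in which 59.4% of genes were called, 5907 of the 6270 downward. It kept its call in all 30 alternatives, and the value was -0.64 after scaling (limma adjusted p = 0.00305). No interaction of Pparg with diet was called, at -0.10 ± 0.32 for FoxO1 deletion and 0.40 ± 0.32 for PPARα deletion (limma adjusted p = 0.948 and 0.952).

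Pparg is also expressed outside hepatocytes, and in the diet comparison of WT livers markers of stellate cells were lower with it. Stellate cells, the vitamin A storing cells of the liver, had markers that summed to 41.9 to 60.9 TPM in HFD WT livers, against 103 to 159 TPM in RD WT livers. Of 6 tested markers, 5 were called lower (2 after scaling), where 30.8% of all tested genes were called. Dcn, with a mean of 64.1 TPM over all libraries, weighed most in these sums, and Reln was next with 12.4 TPM. The sum was 58.3 to 88.1 TPM in HFD LFPKO, 66.8 to 95.5 TPM in HFD LPKO and 89.6 to 96.4 TPM in HFD LFKO livers. In HFD LFKO livers 2 of the 6 markers were called higher than in HFD WT livers, where 13.5% of all tested genes were called, 1343 of 1420 upward. Of 6 tested stellate markers none was called in the averaged PPARα comparison, and their median was -0.03. Adipocyte markers summed to at most 1.06 TPM in any library; Lep was at 0 in all 24 and Adipoq at 0 in 19. Kupffer cell markers, of which 0 of 8 were called in the averaged diet comparison and 1 of 8 lower in WT livers, summed to 39.1 to 95.6 TPM in HFD WT livers and 84.3 to 140 TPM in RD WT livers. These ranges overlapped. So did those of endothelial cell markers, at 33.1 to 49.2 TPM in HFD WT and 48.0 to 61.4 TPM in RD WT livers. Markers of cholangiocytes, the cells of bile ducts, also overlapped, at 25.3 to 47.3 TPM and 29.3 to 71.9 TPM. On RD, where Pparg was 1.10 higher in LFPKO and 0.71 higher in LPKO than in WT livers (the second not called), Kupffer cell markers ran the other way. They summed to 39.0 to 79.5 TPM in RD LFPKO and 45.7 to 67.4 TPM in RD LPKO livers, below all 3 RD WT livers, and 1 of 8 was called lower in each, Cd163, a scavenger receptor gene of macrophages (-0.97 ± 0.29 and -1.01 ± 0.29, limma adjusted p = 0.0457 and 0.0444). Of all tested genes, 7.45% and 5.85% were called there. In RD LFKO livers, where Pparg was 0.74 higher (not called), Kupffer cell markers summed to 65.6 to 89.6 TPM and overlapped RD WT livers. Stellate cell markers summed to 94.3 to 102 TPM in RD LFPKO and 88.3 to 105 TPM in RD LPKO livers, against 103 to 159 TPM in RD WT livers, and none of 6 was called. The part of stellate and Kupffer cells in these results was not tested, and in bulk liver fewer cells of a type and less RNA per cell cannot be told apart.

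**Figure D2:**
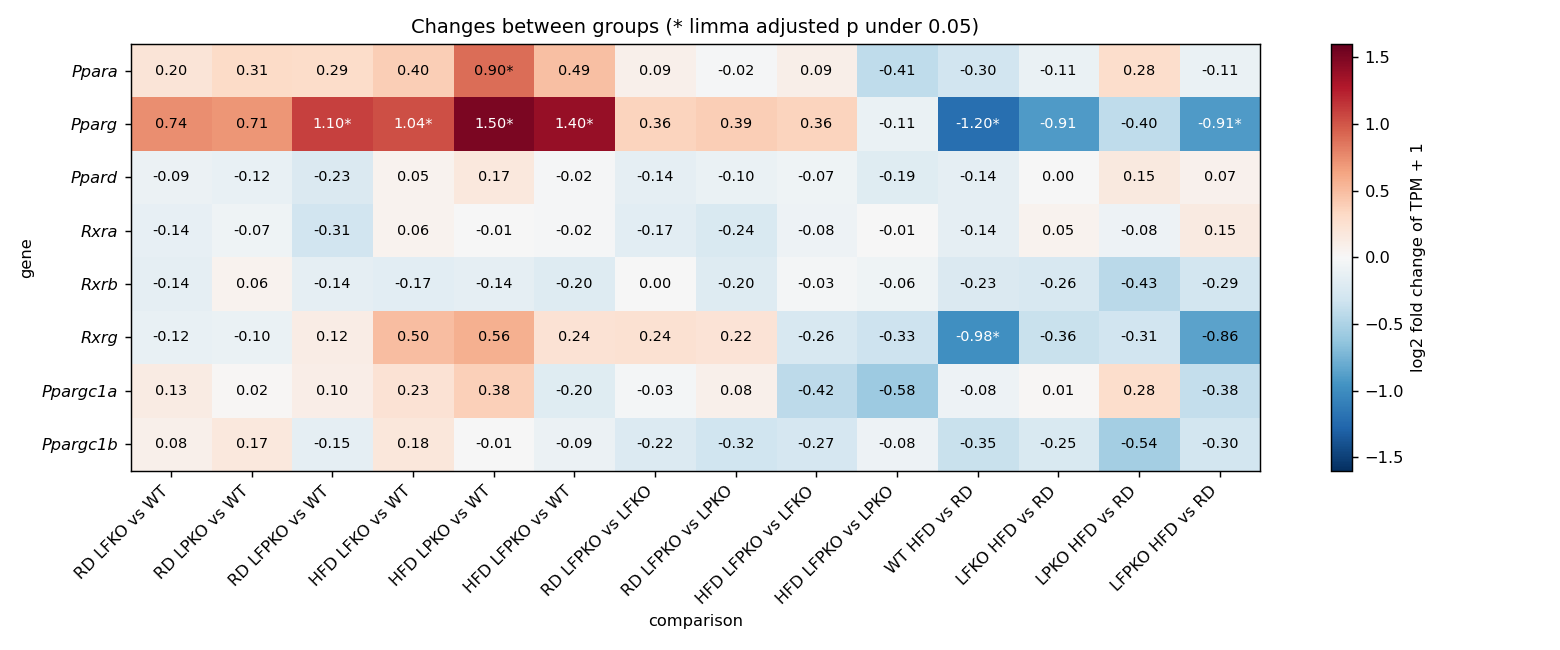
Log2 fold change of TPM + 1 for the 8 genes (rows) in the 14 comparisons of groups (columns); red is higher and blue lower in the group named first, and an asterisk marks a limma adjusted p under 0.05. Starred values appear in the rows of Ppara, Pparg and Rxrg, with the highest, 1.504, for Pparg in HFD LPKO against HFD WT livers.

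Ppara (ENSMUSG00000022383.13, chr15:85734983-85802819, plus strand), the fasting receptor of fatty acid oxidation and the gene targeted in LPKO and LFPKO livers, had more gene-level TPM in the livers labelled PPARα-/-. On HFD it stood at 57.5, 63.5 and 60.0 TPM in LFPKO livers, at 84.3, 87.3 and 70.9 TPM in LPKO livers, at 42.1, 68.8 and 62.6 TPM in LFKO livers, and at 47.6, 44.2 and 37.1 TPM in WT livers. The LPKO libraries were the highest and did not overlap any other HFD group, and HFD LFKO replicate 1 lay among the WT libraries. On RD it stood at 62.8, 74.1 and 59.2 TPM in LFPKO livers, at 70.1, 64.6 and 63.4 TPM in LPKO livers, at 61.4, 61.0 and 61.3 TPM in LFKO livers, and at 54.8, 48.4 and 56.1 TPM in WT livers. On RD every knockout library lay above every WT library. By group mean, HFD LPKO (80.9 ± 8.74 TPM) led and HFD WT (43.0 ± 5.39 TPM; SD, n = 3 each) came last. These 2 groups overlapped no neighbour in the order, while RD LPKO, RD LFPKO, RD LFKO, HFD LFPKO, HFD LFKO and RD WT, in that order from 66.0 to 53.1 TPM, each overlapped the next.

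The difference of Ppara in HFD LPKO livers from HFD WT livers was 0.90 ± 0.14 (limma adjusted p = 5.08e-04), called in all 13 alternatives. In the other groups it was 0.49 ± 0.14 in HFD LFPKO livers (limma adjusted p = 0.0689; 0.0393 after scaling), 0.40 ± 0.14 in HFD LFKO livers (limma adjusted p = 0.0642), 0.29 ± 0.14 in RD LFPKO livers, 0.31 ± 0.14 in RD LPKO livers and 0.20 ± 0.14 in RD LFKO livers (limma adjusted p = 0.237, 0.235 and 0.522), each against WT on the same diet. PPARα deletion averaged over diets and FoxO1 gave 0.35 ± 0.07 (limma adjusted p = 0.00136, called in all 30 alternatives), with 57.5 to 87.3 TPM and a median of 64.0 TPM in PPARα-/- libraries, against 37.1 to 68.8 TPM and a median of 55.5 TPM in the others. The average joined unequal values: with FoxO1 intact, LPKO livers differed from WT by 0.90 on HFD and 0.31 on RD, and with FoxO1 deleted, LFPKO livers differed from LFKO livers by 0.09 ± 0.14 on HFD and 0.09 ± 0.14 on RD (limma adjusted p = 0.747 and 0.828).

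The difference of Ppara between FoxO1-/- livers and their controls was read with PPARα intact and with PPARα deleted. LFKO livers differed from WT by 0.40 on HFD and 0.20 on RD, and LFPKO livers from LPKO livers by -0.41 on HFD and -0.02 ± 0.14 on RD, the last of which turned to 0.02 after scaling. The 2 HFD groups of the second comparison did not overlap, at 57.5 to 63.5 TPM in LFPKO and 70.9 to 87.3 TPM in LPKO livers, although 0.351% of genes and no member were called there (limma adjusted p = 0.249); at an unadjusted p under 0.05 there were 2, Ppara and Ppargc1a. The test of the FoxO1 by PPARα interaction was -0.52 ± 0.14 (limma adjusted p = 0.0278), in a comparison with 8.77% of genes called and a median of -0.16 over all genes. After scaling the interaction was -0.33 (limma adjusted p = 0.102) and without Mup and mitochondrial transcripts -0.25 (limma adjusted p = 0.245). It also missed the threshold when 1 of 8 libraries was left out (HFD LFKO replicate 2 or 3, HFD LFPKO replicate 1, HFD LPKO replicate 1 or 2, RD LFPKO replicate 3, RD LPKO replicate 1 or RD WT replicate 2), with limma adjusted p from 0.0506 to 0.0585; without HFD LFKO replicate 1 it was -0.62 (limma adjusted p = 0.00159).

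Diet did not give a called change of Ppara in any genotype. The averaged HFD difference was -0.06 ± 0.07 (limma adjusted p = 0.475), with 37.1 to 87.3 TPM on HFD, against 48.4 to 74.1 TPM on RD; after scaling it turned to 0.19 (limma adjusted p = 0.0134). Within genotypes the difference was -0.11 in LFPKO, 0.28 in LPKO, -0.11 in LFKO and -0.30 in WT livers (SE 0.14 each). Those in LFPKO, LFKO and WT livers turned positive after scaling, and in LPKO livers the scaled value was 0.54 (limma adjusted p = 0.00731).

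Ppard (chr17:28232700-28301474, plus strand), the broadly expressed PPAR, ranged from 1.46 to 2.42 TPM and was called in none of the 20 comparisons. Its group means lay between 1.64 ± 0.141 TPM in RD LFPKO and 2.16 ± 0.173 TPM in HFD LPKO livers (SD, n = 3 each), and each group overlapped the next in order. Its averaged differences had 95% intervals of -0.17 to 0.09 for PPARα deletion, -0.21 to 0.05 for FoxO1 deletion and -0.11 to 0.15 for HFD. After scaling, the HFD value was 0.18 (limma adjusted p = 0.0135).

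The ratio of Pparg to Ppara within a library does not depend on the total to which TPM are scaled. On HFD it was 0.125, 0.107 and 0.119 in LFPKO livers, 0.105, 0.132 and 0.0600 in LPKO livers, 0.143, 0.0593 and 0.0937 in LFKO livers, and 0.0779, 0.0241 and 0.0519 in WT livers. On RD it was 0.352, 0.137 and 0.207 in LFPKO livers, 0.203, 0.104 and 0.187 in LPKO livers, 0.157, 0.168 and 0.204 in LFKO livers, and 0.110, 0.107 and 0.124 in WT livers. RD LFPKO replicate 1 was the highest of all and HFD WT replicate 2 the lowest. Ratios were compared with exact permutation tests within strata of the other factors (two-sided, 12 against 12 libraries, 9 tests adjusted together), an analysis chosen after the values were seen. The log2 ratio was 0.53 higher with PPARα deletion (exact permutation p = 0.0184, adjusted 0.0331), 0.60 higher with FoxO1 deletion (exact permutation p = 0.00775, adjusted 0.0174) and 0.96 lower on HFD (difference -0.96, exact permutation p = 0.0001125, adjusted 0.00101). Each direction was the same in 4 of 4 strata and the unadjusted p stayed under 0.05 in 25 of 25 alternatives. In HFD LFPKO against HFD LPKO livers the log2 ratio was 0.31 higher, while Pparg itself differed by -0.11 and Ppara by -0.41, neither called.

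**Figure D3:**
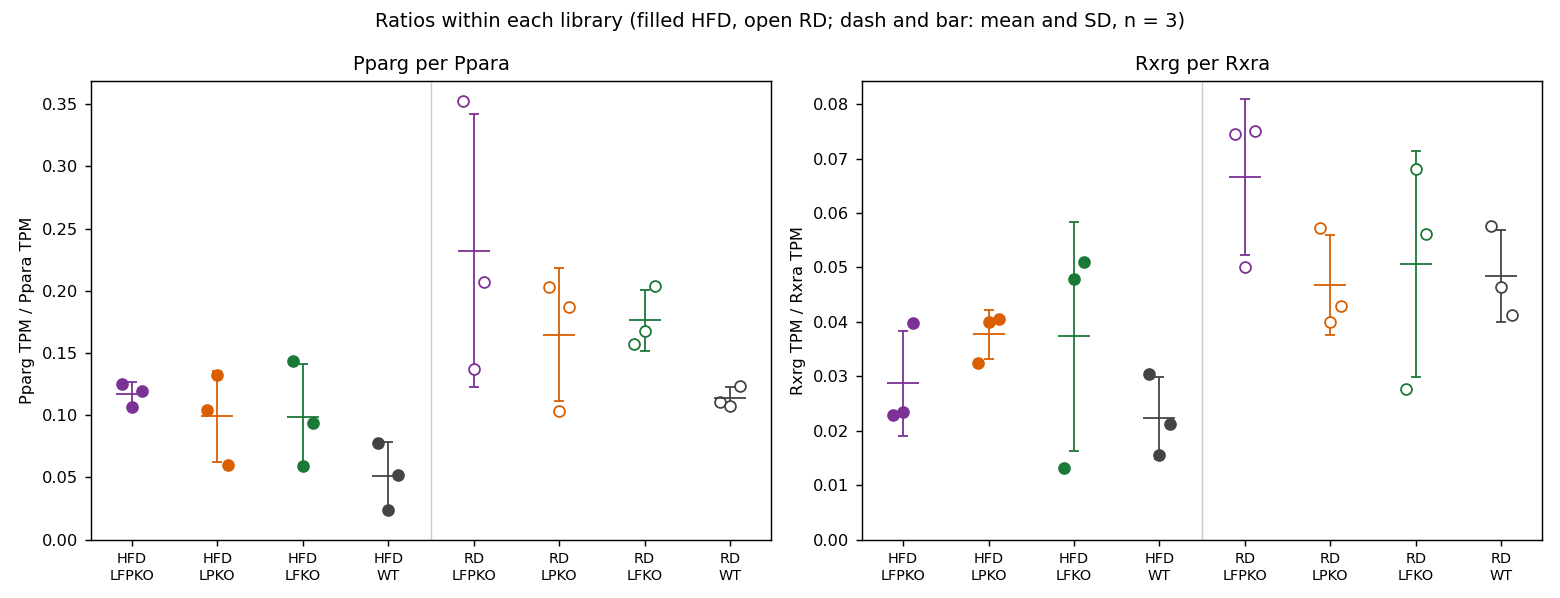
Pparg TPM divided by Ppara TPM (left) and Rxrg TPM divided by Rxra TPM (right) in each library by group; points are libraries, the dash and bar are the mean and SD of 3 libraries, and axes start at 0. The Pparg ratio has a mean of 0.0513 in HFD WT livers, the lowest of the 8 groups, and 0.232 in RD LFPKO livers, the highest.

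Rxra (ENSMUSG00000015846.14, chr2:27676440-27762957, plus strand), the main RXR of hepatocytes, lay between 83.3 and 116 TPM and was called in no comparison. Its group means ran from 87.8 ± 4.998 TPM in RD LFPKO to 109 ± 2.19 TPM in RD WT livers (SD, n = 3 each), and each group overlapped the next in order. These 2 groups at the ends did not overlap, at 85.3, 93.5 and 84.5 TPM in RD LFPKO livers, against 111, 106 and 109 TPM in RD WT livers, a difference of -0.31 ± 0.11 (limma adjusted p = 0.107; -0.32 and 0.0202 after scaling). The averaged HFD difference was -0.01 ± 0.06 (95% interval -0.12 to 0.11), and scaling turned it to 0.25 (limma adjusted p = 2.33e-04). In LFPKO livers the HFD value was 0.15 and missed the threshold, and it was 0.42 after scaling (limma adjusted p = 0.00399). The direction of averaged Rxra on HFD thus differed between the deposited and the scaled TPM.

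Rxrb (ENSMUSG00000039656.17, chr17:34031812-34038399, plus strand), the RXR found at moderate levels in many tissues, fell on HFD in the averaged comparison. It stood at 7.56 to 14.4 TPM with a median of 11.95 TPM in the 12 HFD libraries, against 12.5 to 17.6 TPM with a median of 14.3 TPM in the 12 RD libraries. The ranges overlapped, with HFD LFKO replicate 1 the lowest. The difference was -0.30 ± 0.08 (limma adjusted p = 0.00286) and after scaling -0.07 (limma adjusted p = 0.386). In the deposited TPM 59.4% of all tested genes were called in that comparison, with a median of -0.21. No deletion gave a called change, with averaged values of -0.03 ± 0.08 for PPARα and -0.14 ± 0.08 for FoxO1. By mean, RD LPKO (15.5 ± 0.554 TPM) was highest and HFD LFPKO (10.8 ± 1.80 TPM; SD, n = 3 each) lowest, and each group overlapped the next.

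Rxrg (ENSMUSG00000015843.10, chr1:167598384-167639623, plus strand), an RXR best known from muscle and brain, fell on HFD. It stood at 1.91, 2.73 and 3.77 TPM in HFD LFPKO livers, against 6.36, 4.68 and 6.34 TPM in RD LFPKO livers. It stood at 3.37, 4.20 and 3.50 TPM in HFD LPKO livers, against 5.97, 4.33 and 4.25 TPM in RD LPKO livers. Neither pair overlapped. It stood at 1.20, 4.94 and 5.84 TPM in HFD LFKO livers, against 2.88, 6.53 and 5.40 TPM in RD LFKO livers. It stood at 3.19, 1.45 and 2.08 TPM in HFD WT livers, against 6.38, 4.93 and 4.49 TPM in RD WT livers. The LFKO diets overlapped, with replicate 1 low on both diets, and the WT diets did not. By mean, the 4 RD groups (4.85 to 5.79 TPM) stood above the 4 HFD groups (2.24 to 3.99 TPM), and each group overlapped the next in order.

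The averaged HFD difference of Rxrg was -0.62 ± 0.16 (limma adjusted p = 0.00265), called in all 29 alternatives and -0.43 after scaling (limma adjusted p = 0.0240). In WT livers it was -0.98 ± 0.32 (limma adjusted p = 0.0299), and the call was lost without HFD WT replicate 2 or 3 or RD WT replicate 1, 2 or 3 (-0.79, -0.96, -0.85, -1.01 and -1.07, limma adjusted p = 0.151, 0.0598, 0.0715, 0.0639 and 0.0591) and after scaling (-0.73, limma adjusted p = 0.131). The averaged deletion effects were 0.11 ± 0.16 for PPARα and 0.07 ± 0.16 for FoxO1, neither called. Over the 12 HFD libraries the stellate marker sum was 41.9 to 96.4 TPM, against 88.3 to 159 TPM over the 12 RD libraries. Of 6 markers, 5 were called lower with a median of -0.44, where 59.4% of all tested genes were called. After scaling 0 of 6 were called lower, with a median of -0.20. The part of stellate cells in the fall of Rxrg was not tested.

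Within libraries, Rxrg per Rxra was 0.82 lower on HFD on the log2 scale (difference -0.82, exact permutation p = 0.00169, adjusted 0.00506) and Rxrb per Rxra 0.32 lower (difference -0.32, exact permutation p = 0.00035, adjusted 0.00158), each in 4 of 4 strata. Neither ratio passed the threshold for either deletion, with exact permutation p from 0.273 to 0.535 and differences between -0.07 and 0.25. Rxra made up 85.0% to 91.2% of RXR TPM on HFD, against 81.5% to 87.0% on RD.

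Ppargc1a (ENSMUSG00000029167.13, chr5:51454250-51567726, minus strand), the fasting-induced coactivator, was called in none of the 20 comparisons. It stood at 1.01 to 3.14 TPM over all libraries, and its group means ran from 1.38 ± 0.634 TPM in HFD LFPKO to 2.53 ± 0.684 TPM in HFD LPKO livers (SD, n = 3 each), with each group overlapping the next. These 2 end groups overlapped, at 1.02, 1.01 and 2.11 TPM in HFD LFPKO livers, against 3.14, 2.66 and 1.79 TPM in HFD LPKO livers, a difference of -0.58. The 95% intervals of the averaged effects were -0.24 to 0.21 for PPARα deletion, -0.26 to 0.19 for FoxO1 deletion and -0.27 to 0.18 for HFD.

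Ppargc1b (ENSMUSG00000033871.14, chr18:61298136-61400431, minus strand), the coactivator linked to lipid synthesis as well as oxidation, fell on HFD in the averaged comparison. It stood at 0.708 to 2.37 TPM with a median of 1.43 TPM on HFD, against 1.63 to 2.90 TPM with a median of 2.13 TPM on RD. The ranges overlapped, and in WT livers the diets did not, at 1.65, 1.17 and 1.44 TPM on HFD, against 2.12, 2.42 and 1.74 TPM on RD. The averaged difference was -0.36 ± 0.10 (limma adjusted p = 0.00483), and after scaling -0.20 (limma adjusted p = 0.0974). In the deposited TPM 59.4% of all tested genes were called in that comparison, with a median of -0.21. By mean, RD LPKO (2.48 ± 0.372 TPM) was highest and HFD LFPKO (1.31 ± 0.558 TPM; SD, n = 3 each) lowest, and each group overlapped the next. Neither deletion was called, at -0.08 ± 0.10 for PPARα and -0.03 ± 0.10 for FoxO1.

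**Figure D4:**
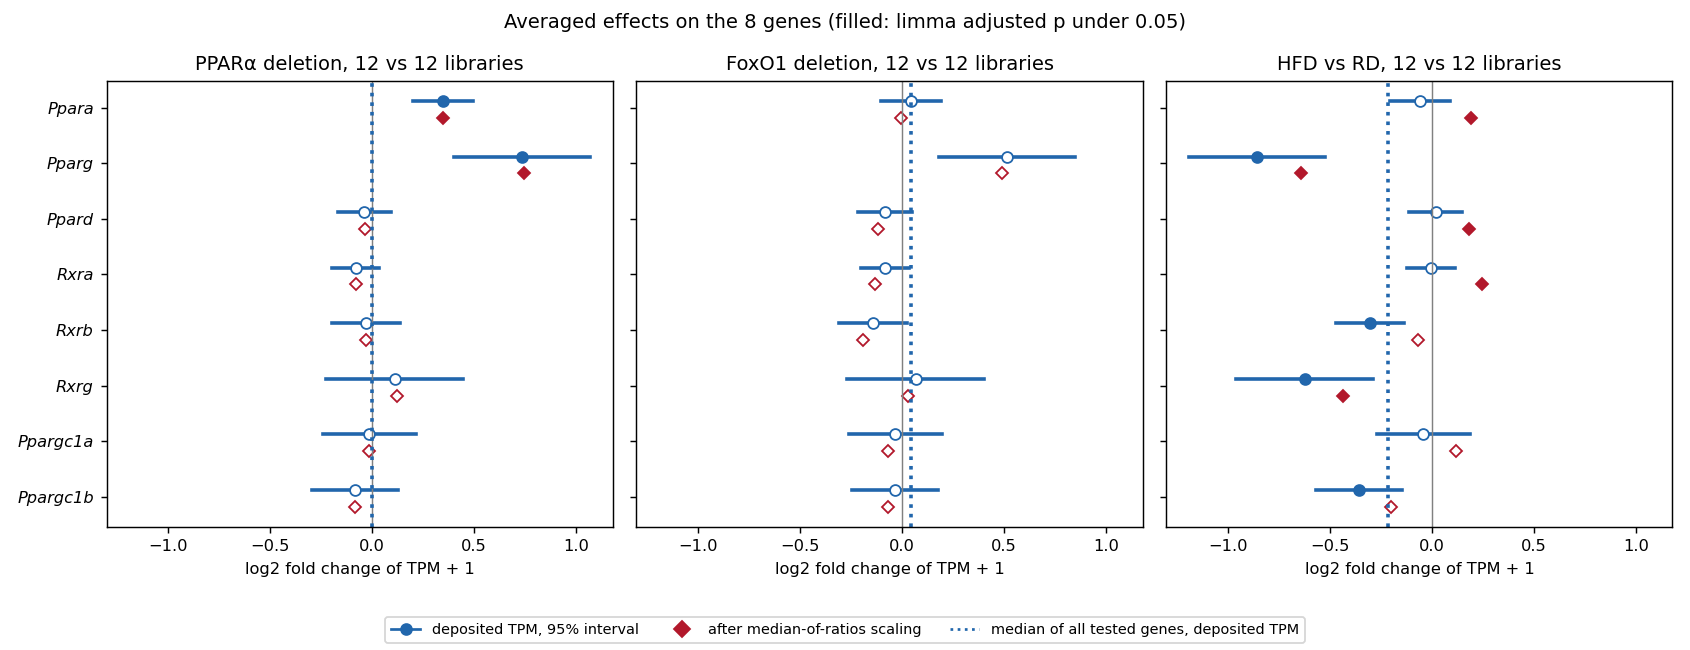
Averaged effects of PPARα deletion, FoxO1 deletion and HFD on the 8 genes, 12 against 12 libraries each; circles are log2 fold changes of the deposited TPM + 1 with 95% intervals, diamonds the values after scaling, filled where the limma adjusted p is under 0.05, and the dotted line is the median of all tested genes. Pparg and Ppara are filled for PPARα deletion, and on HFD the circles of Pparg, Rxrg, Ppargc1b and Rxrb lie below the median line at -0.21 while Ppard, Rxra, Ppargc1a and Ppara lie above it.

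The 6 comparisons of double with single knockouts and of effects between diets called no member. The double against single knockout comparisons called 5.08% of genes for RD LFPKO against LFKO, 0.123% for RD LFPKO against LPKO and 10.6% for HFD LFPKO against LFKO. At an unadjusted p under 0.05, members numbered 0, 1 (Rxra) and 0. FoxO1 deletion by diet called 0 genes, and no member reached an unadjusted p under 0.05; PPARα deletion by diet called 0.0758% of genes, with 1 member, Ppara, at an unadjusted p under 0.05.

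The known targets of the receptors were read as lists. Of 23 PPARα target genes tested, 21 were called lower and 1 higher in PPARα-/- livers in the averaged comparison, with a median of -1.17, against -0.00 over all tested genes. In that comparison 17% of all tested genes were called. Vnn1, which encodes the pantetheinase vanin-1, fell by 4.06 ± 0.16, the mitochondrial carnitine carrier gene Slc25a20 by 1.98 ± 0.09, and Acadvl, the gene of very long chain acyl-CoA dehydrogenase, by 1.30 ± 0.06 (limma adjusted p at most 5.46e-12). The gene that rose was Pdk4, a brake on glucose oxidation (0.82 ± 0.17, limma adjusted p = 0.00163). Ppara TPM, at 0.35, and its targets moved in opposite directions in the same libraries, but these TPM also count any transcripts from an allele with an exon removed. With FoxO1 deletion, where 3.94% of all tested genes were called, 4 of the 23 were called higher, among them Fgf21, a fasting hormone gene (0.61 ± 0.12, limma adjusted p = 0.00714), and none lower. On HFD, where 59.4% of all tested genes were called, 17 were called lower and 1 higher, with a median of -0.42, against -0.21 over all genes; after scaling 11 were lower and 5 higher, with a median of -0.16.

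Of 9 genes known as PPARγ targets in fatty liver, 6 were tested; Cidea, Mogat1 and Aqp7 had a mean under 1 TPM. In PPARα-/- livers, where Pparg was 0.73 higher, 4 of the 6 were called lower and none higher, with a median of -0.55. Of all tested genes, 17% were called there. Cd36, which encodes a fatty acid transporter, fell by 1.24 ± 0.20, the lipolysis inhibitor gene G0s2 by 1.14 ± 0.34, the lipoprotein lipase gene Lpl by 0.58 ± 0.18 and the lipid droplet gene Plin4 by 0.52 ± 0.15 (limma adjusted p at most 0.0299). The Cd36 average joined unequal values. With FoxO1 intact, LPKO livers differed from WT by -1.73 on RD and 0.95 on HFD (limma adjusted p = 0.0131 and 0.193). With FoxO1 deleted, LFPKO livers differed from LFKO livers by -2.02 on RD and -2.18 on HFD. Plin4 differed between LPKO and WT livers by -1.31 on RD and 0.18 on HFD, the second not called. Between LFPKO and LFKO livers it differed by -0.03 on RD and -0.91 on HFD, neither called. G0s2 and Lpl were called in none of these 4 comparisons. Between LPKO and WT livers G0s2 differed by -1.04 on RD and -0.82 on HFD, and Lpl by -0.49 and -0.78. Between LFPKO and LFKO livers G0s2 differed by -2.28 on RD and -0.41 on HFD, and Lpl by -1.09 and 0.05. On HFD, where Pparg fell, Cd36 (-1.48 ± 0.20), the lipid droplet gene Cidec (-0.92 ± 0.15) and Lpl (-0.68 ± 0.18) were called lower (limma adjusted p at most 0.00297) and none higher, also after scaling. In the deposited TPM their called share was smaller than the 59.4% of all tested genes called there, 5907 of 6270 of them downward. With FoxO1 deletion averaged, Cd36 rose (0.88 ± 0.20, limma adjusted p = 0.0174) and no other was called, with 3.94% of all tested genes called. The strata were unequal. LFKO livers differed from WT by 0.92 on RD and 2.55 on HFD, and only the second was called. LFPKO livers differed from LPKO livers by 0.63 on RD and -0.58 on HFD, neither called. The FoxO1 by PPARα interaction of Cd36 was -1.70 ± 0.41 (limma adjusted p = 0.0154), with 8.77% of genes called. Cd36 stood at 5.95 ± 1.53 TPM in HFD LFPKO, 10.3 ± 5.71 TPM in HFD LPKO, 36.5 ± 24.8 TPM in HFD LFKO and 4.35 ± 1.06 TPM in HFD WT livers (SD, n = 3 each), highest in LFKO livers, whereas the mean of Pparg was highest in LPKO livers. Cd36 is also a target of PPARα, so this list does not read PPARγ alone. The part of PPARγ in these values was not tested.

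Of 11 other receptors that pair with RXR, 9 were called lower on HFD and none higher, with a median of -0.27, against -0.21 over all genes; after scaling 3 were lower and 1 higher, with a median of -0.03. The xenobiotic receptor PXR gene Nr1i2 (-0.54 ± 0.08), the retinoic acid receptor gene Rarg (-0.44 ± 0.08) and the orphan receptor gene Nr4a1 (-1.47 ± 0.37) had the smallest adjusted p (limma adjusted p at most 0.00222), and stayed lower after scaling, by 0.30, 0.30 and 1.30 on the log2 scale. Nr1i2 was the only one called with PPARα deletion (-0.28 ± 0.08, limma adjusted p = 0.0163), and none was with FoxO1 deletion. Of 20 coregulators, 6 were called lower and 2 higher on HFD, a smaller share than the 59.4% of all tested genes, with a median of -0.12, against -0.21 over all genes; after scaling 1 was lower and 6 higher. The methyltransferase gene Prmt1 fell by 0.46 ± 0.08, and the corepressor gene Ncor1 rose by 0.29 ± 0.06 (limma adjusted p at most 0.000617). These directions held after scaling, with values of -0.23 and 0.54. Neither deletion called any coregulator in the deposited TPM. Of 10 tested factors that work with PGC-1, 4 were called lower and 2 higher on HFD, led by the hepatocyte factor Hnf4a (-0.29 ± 0.06, limma adjusted p = 5.92e-04; -0.04 after scaling), against none lower and 5 higher after scaling. The called share of these factors was near the 59.4% of all tested genes. The mitochondrial DNA factor Tfam fell with PPARα deletion (-0.23 ± 0.07, limma adjusted p = 0.0253), and Foxo1 itself was the only one called with FoxO1 deletion. Of 3 gluconeogenesis genes, G6pc, the glucose-6-phosphatase gene, was called lower with FoxO1 deletion (-1.38 ± 0.17) and with PPARα deletion (-1.21 ± 0.17, limma adjusted p at most 6.27e-05), while Ppargc1a was called with neither.

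**Figure D5:**
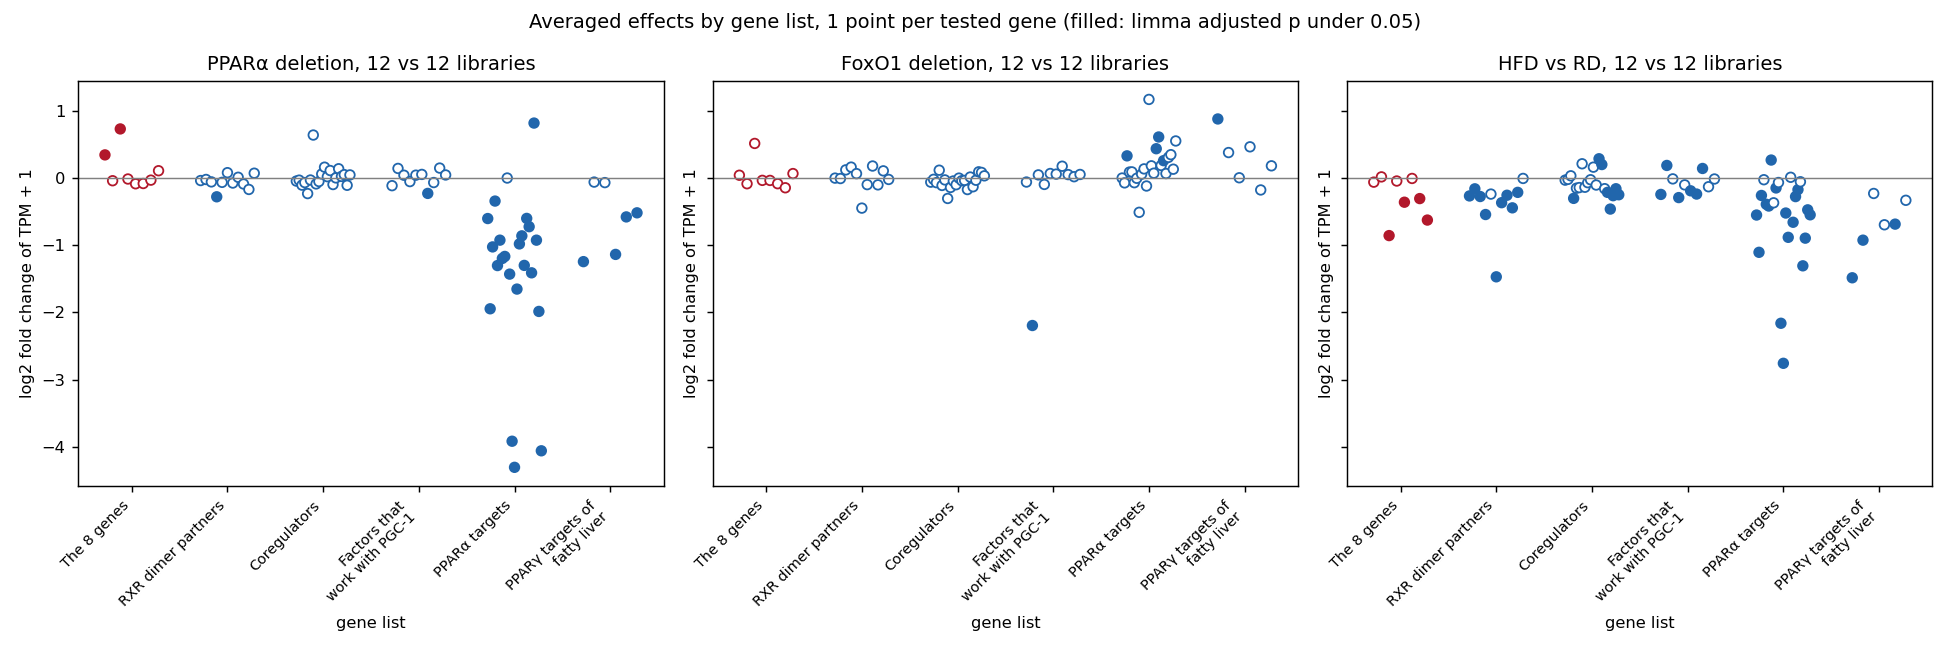
Averaged log2 fold changes of TPM + 1 for PPARα deletion, FoxO1 deletion and HFD, with 1 point per tested gene by list; red points are the 8 genes, blue points the lists, and filled points have a limma adjusted p under 0.05. Under PPARα deletion, Ppara and Pparg are filled above 0, while 21 of 23 PPARα targets and 4 of 6 PPARγ targets are filled below 0.

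Across the 24 libraries the 8 genes did not vary as 1 unit. Of their 28 pairs, Ppard with Rxra had the highest Pearson r of log2(TPM + 1), 0.74, followed by Rxrb with Ppargc1b at 0.71, Rxrg with Ppargc1b at 0.66 and Rxrb with Rxrg at 0.65. After group means were removed, these were 0.79, 0.58, 0.58 and 0.64. Ppara with Pparg was 0.60 over the libraries and 0.12 within groups, and Ppara with Rxra was 0.10 and 0.62. These values describe libraries that share diets, genotypes and the scaling of TPM. Among tested genes with at least 5 TPM on average, those most like Pparg included Copb1 (r = 0.90, rho = 0.84) and Hmgcs1 (0.88, 0.85). Those most like Ppara were Zdhhc5 (r = 0.81, rho = 0.74), Prnp (0.80, 0.81) and Cldn12 (0.78, 0.72), those most like Rxrg were Vat1, Dapk2 and Mgst3 (r from 0.89 to 0.90), and those most like Rxrb were Pofut2, Spns1 and Trmt1 (r from 0.88 to 0.89). Rxra was the gene most like Ppard, Sphk2 (r = 0.77) the most like Rxra, Klf15 (r = 0.71, rho = 0.55) the most like Ppargc1a and Rhbdd3 (r = 0.86, rho = 0.84) the most like Ppargc1b.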

How the data were processed

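Liver RNA was taken up in Trizol and made into TruSeq stranded mRNA libraries, per the labels' protocols. The authors deposited 1 table of gene-level TPM; kallisto and the builds mm10 and GRCm38 are named in the submitters' processing notes. Version and annotation of that run were not given in the sources used here. A line without a gene name (0.0104% to 0.0250% of TPM) was left out. TPM give no depth, so error rests on 3 libraries per group.

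Values were changed to log2(TPM + 1), and genes with a mean of at least 1 TPM were tested with limma 3.58.1 in R 4.3.3: 1 mean per group, 24 libraries, 16 residual degrees of freedom, a trended prior, two-sided tests and Benjamini-Hochberg adjustment within each of 20 comparisons. The fit and the permutation test were tested on simulated data. The 8 genes and the lists were chosen with earlier results of these data known. All 8 genes are named; from a list, up to 4 called genes per comparison with the smallest adjusted p were named; Pdk4, the PPARγ targets under the filter and the Cd36 levels were named after their values were seen. For likeness, the 3 genes with the highest Pearson r could be named; some are not reported here.

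The alternatives tried were median-of-ratios scaling, leaving out Mup and mitochondrial-genome transcripts, no filter, a filter at a mean of 5 TPM, a pseudocount of 0.1, the compared groups alone, a replicate block, and dropping each library in turn. Within-library ratios, with a pseudocount of 1 as an alternative, were added after the data were seen; they were tested over all 160000 arrangements within strata (smallest possible p 1.25e-05). Positions are from GENCODE M21 and promoter sequences from RefSeq. Python 3.11.15 and matplotlib 3.10.9 made the figures.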

Additional observations from a re-analysis of the deposited data

Results flagged for a closer look

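The difference between the FoxO1 effect on Ppara in PPARα-/- livers and that in PPARα-intact livers passed its own test, with an interaction of -0.52 ± 0.14 on the log2(TPM + 1) scale (limma adjusted p = 0.0278). FoxO1 deletion went with -0.41 on HFD and -0.02 on RD where PPARα was deleted, and with 0.40 on HFD and 0.20 on RD where it was intact. The range over 30 alternatives was -0.62 to -0.25, with limma adjusted p from 0.00159 to 0.245.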

How the results depend on the processing

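No called value reversed. Over their alternatives, 15 called gene results kept their direction, and those of Ppara (HFD LPKO against WT, averaged PPARα deletion), Pparg (averaged PPARα deletion, averaged HFD) and Rxrg (averaged HFD) kept their call throughout. Counts of called members moved as follows. For FoxO1 by PPARα, 1 became 0 with scaling, with no filter and without Mup and mitochondrial transcripts (0 to 2 with single libraries left out). Leaving out those transcripts gave 1 for averaged FoxO1 deletion (main 0, Rxra; 0 to 1 with libraries left out). Averaged HFD called 4 of the 8 members in the deposited TPM, a smaller share than the 59.4% of all tested genes. For averaged HFD, 4 became 2 at a mean of at least 5 TPM, since Rxrg and Ppargc1b were then not tested, and 4 lower became 2 lower and 3 higher with scaling: Rxrb and Ppargc1b lost their call and Ppara, Ppard and Rxra were called higher. The same 5 genes were called with the transcripts left out. For HFD LFKO against WT, 1 became 0 with the compared groups alone, scaling, no filter and the transcripts left out (0 to 2). For HFD LFPKO against WT, 1 became 0 with the groups alone and 2 with both rescalings, Ppara added (0 to 1). For HFD LPKO against WT, 2 became 1 with the groups alone (1 to 2). For LFKO on HFD against RD, 0 became 1 with the groups alone (Pparg) and with the transcripts left out (Rxra). For LPKO on HFD against RD, 0 became 1 with the groups alone (Rxrb) and both rescalings (Ppara; 0 to 1). For LFPKO on HFD against RD, 1 became 0 with no filter and a pseudocount of 0.1 (0 to 1), and the 1 called was Rxra in place of Pparg with both rescalings and Rxrg with the groups alone or without HFD LFPKO replicate 3, and Ppargc1a without RD LFPKO replicate 1. For RD LFKO against WT, 0 became 1 with the groups alone (Pparg). For RD LFPKO against WT, 1 became 0 with the groups alone, no filter and a pseudocount of 0.1, and 2 with both rescalings, Rxra added (0 to 1). For WT on HFD against RD, 2 became 1 at 5 TPM and with no filter and 0 with both rescalings (0 to 2). For HFD LFPKO against LFKO, leaving out libraries gave 0 to 1. The cause of these changes was not tested. Over all genes, counts moved further: 3250 called genes in WT on HFD against RD became 823 after scaling, with 391 higher and 432 lower in place of 111 and 3139, and 1420 in HFD LFKO against WT became 450 after scaling (269 higher, 181 lower) and 140 with the groups alone; in FoxO1 by PPARα 925 became 489 after scaling.

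With the replicate block the counts of called members were 0 to 4 per comparison and the same as without it in all 20, for example 4 for averaged HFD. Same-numbered libraries correlated between -0.51 and 0.41 over 84 pairs (median -0.01), so the numbers were not taken as pairs. TPM of 1 to 3, as for Ppard and both PGC-1 genes, carry an unknown count error.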
